A study of Homo sapiens with 12 samples.

Results

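The immunoproteasome and peptide-trimming set of 10 genes was described in CAL27 and HSC3 cells with MUC1 silencing. The genes were taken by symbol from the deposited counts, and all 10 were present among the 39368 symbols listed. They comprise the immune catalytic subunits PSMB8, PSMB9 and PSMB10, their constitutive counterparts PSMB5, PSMB6 and PSMB7, the activator subunits PSME1 and PSME2, and the aminopeptidases ERAP1 and ERAP2. CAL27 and HSC3 are established HPV-negative head and neck squamous cell carcinoma (HNSCC) lines. CAL27 cells were cultured in DMEM and HSC3 cells in minimum essential medium, and the counts of each line were deposited separately. In the tet-MUC1shRNA cells, doxycycline (DOX) switches on a vector-borne shRNA against MUC1. There were 4 groups of 3 libraries: CAL27/tet-MUC1shRNA with vehicle (0.10% DMSO), CAL27/tet-MUC1shRNA with 500 ng/mL DOX, and the same for HSC3/tet-MUC1shRNA, all for 7 days. All 12 libraries carry the same shRNA, and no DOX-treated control shRNA library was analysed here, so the effect of DOX itself and that of MUC1 silencing cannot be told apart.

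The proteasome degrades ubiquitinated proteins into short peptides. Its 20S core has a trio of catalytic subunits, PSMB6, PSMB7 and PSMB5, and in cells exposed to interferon newly built cores take up PSMB9, PSMB10 and PSMB8 in their places, giving the immunoproteasome, which favours peptides that fit MHC class I molecules. PSME1 and PSME2 form PA28, a ring that caps the core, and ERAP1 and ERAP2 trim the peptides in the endoplasmic reticulum after TAP1 and TAP2 have carried them in.

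Counts per library summed to between 92866845 and 126328662 in CAL27 cells and between 89730914 and 169065103 in HSC3 cells. The squamous identity of the lines was checked first. All 9 squamous markers had counts in every library, led by KRT5, and they summed to between 7237 and 7435 CPM with vehicle and between 3506 and 3731 CPM with DOX in CAL27 cells, and to between 5890 and 6553 CPM and between 2780 and 3347 CPM in HSC3 cells. CPM are counts scaled to library size, and these marker sums were normalised by TMM within each line, so they are not on 1 scale across the lines. Markers of blood cells (10 genes) summed to between 1.24 and 8.61 CPM, led by CD14 in CAL27 cells and mostly by CORO1A in HSC3 cells, with 2 to 7 of the 10 at 0. The 6 fibroblast markers summed to between 3.84 and 15.6 CPM, led by COL1A1, with 1 to 5 of them at 0, and the 5 endothelial markers summed to between 0.158 and 16.8 CPM, led in CAL27 cells by CDH5. The HSC3 DOX library of replicate 1 stood apart from its group. It had the largest total (169065103), the fewest genes detected (19128) and the largest share of mitochondrial counts (9.63%). That share was higher in all 3 HSC3 DOX libraries (9.63%, 7.58% and 8.74%) than in the HSC3 vehicle libraries (5.98%, 6.51% and 5.94%), and its part in the HSC3 results was not tested. In CAL27 cells it was 7.55%, 7.82% and 6.39% with vehicle and 6.97%, 6.43% and 8.23% with DOX, and the groups overlapped. In the HSC3 DOX library of replicate 1 the SD of the log2 values around the other libraries of its group was 0.271, against 0.0692 to 0.184 in the other 11 libraries. Many of the HSC3 results, those of the 10 genes among them, are therefore also given without it.

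MUC1, the target of the shRNA, was measured first. In CAL27 cells it was at 58.4, 53.1 and 54.3 CPM with vehicle and at 2.92, 2.76 and 3.25 CPM with DOX. In HSC3 cells it was at 1.66, 1.97 and 1.64 CPM with vehicle and at 0.310, 0.267 and 0.132 CPM with DOX. The groups did not overlap in either line. The log2 fold change was -4.21 (SE 0.067, adjusted p = 1.62e-19) in CAL27 and -2.88 (SE 0.376, adjusted p = 2.02e-04) in HSC3 cells by edgeR's quasi-likelihood test, with p-values adjusted by Benjamini-Hochberg across the whole table. Every adjusted p below comes from this test, a gene is called at an adjusted p under 0.05, and levels of single genes are CPM normalised by TMM over all 12 libraries. Nothing in the labels says beyond culture in triplicate how separate the replicates were, so the p-values measure only the spread between these libraries, which may be technical.

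In CAL27 cells, silencing of MUC1 was accompanied by a fall of the 3 immune catalytic subunits, both PA28 subunits and both ER aminopeptidases, while the constitutive subunits split, with PSMB6 and PSMB7 rising and PSMB5 falling. Of the 10 genes, 8 fell and 2 rose, where 21.8% and 22.6% of all 19239 genes tested were called lower and higher. The median log2 change of the 10 was -0.52, against -0.0052 over all genes tested. In HSC3 cells 2 fell (PSMB5 and ERAP2), 2 rose (PSMB9 and PSME2) and 6 were not called, where 15.4% and 13.0% of 18021 genes were called lower and higher, and the median was 0.023 against -0.0097 over all genes. PSMB5 and ERAP2 were called lower in both lines. Of the called genes, PSMB10 in CAL27 cells and PSMB5 in HSC3 cells changed by more than 2-fold, both lower. By that stricter rule 5.11% of genes were lower and 1.31% higher in CAL27 cells, and 4.40% were lower and 1.58% higher in HSC3 cells. Without the HSC3 DOX library of replicate 1, 3 of the 10 were called lower and 4 higher in HSC3 cells, with ERAP1 (log2 change -0.13), PSMB6 (0.16) and PSMB7 (0.22) added, while the genes called over the whole table went from 2782 to 3601 lower and from 2342 to 3268 higher. The count of higher genes among the 10 was 0 without HSC3 vehicle replicate 1 or 2 or DOX replicate 2 or 3, and 1 without vehicle replicate 3.

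**Figure D1:**
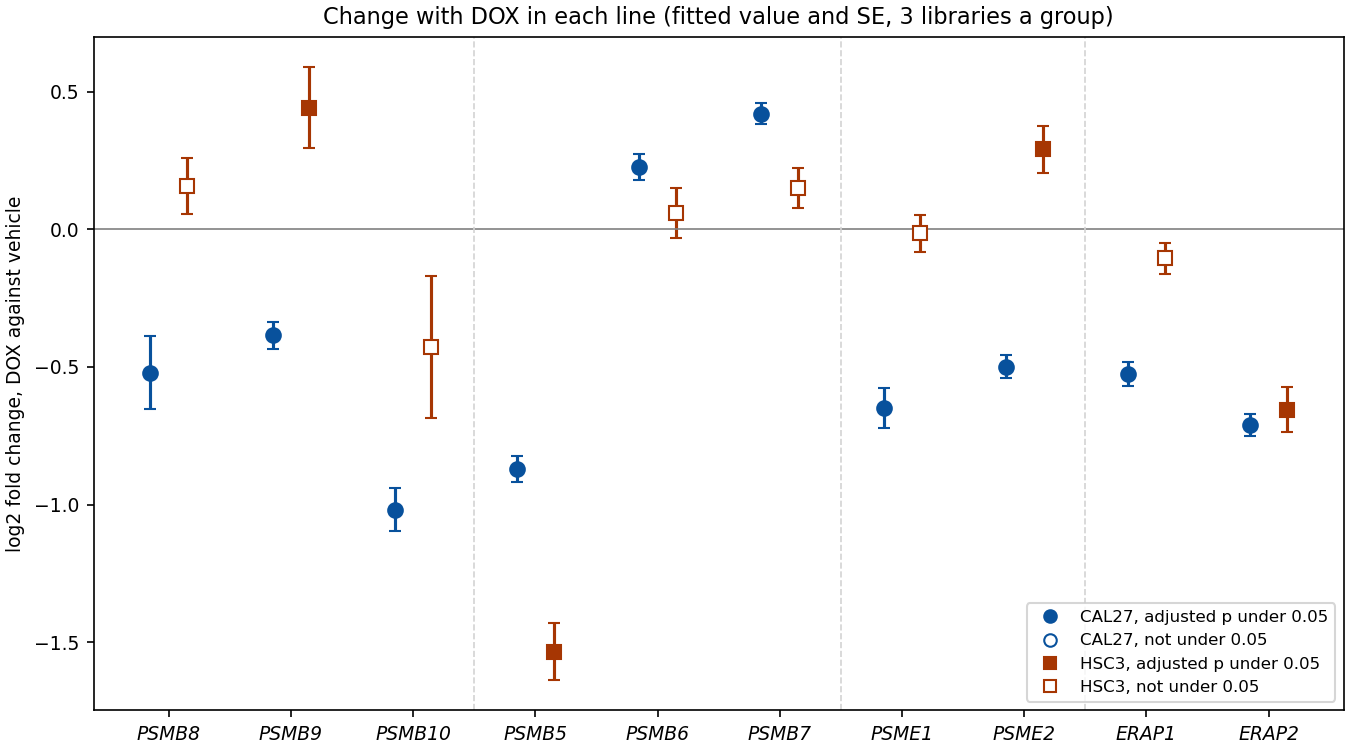
Fitted log2 fold change, DOX against vehicle, of the 10 genes (x axis) in CAL27 (circles) and HSC3 cells (squares), with the SE and 3 libraries per group. Filled symbols have an adjusted p under 0.05. In CAL27 cells 8 genes lie below 0 and 2 above. PSMB5, at -0.87 and -1.53, and ERAP2, at -0.71 and -0.65, are filled and below 0 in both lines.

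The bases around the start sites were examined for what these genes share. Interferons act through transcription factors that bind short DNA elements, the interferon-stimulated response element (ISRE) and the gamma-activated site (GAS). RefSeq start sites on GRCh38.p14, each taken with 250 bases before and 50 after, were available for 8 of the 10 genes. Both strands were searched for the ISRE letters, TTTC and again TTTC with 2 bases of any kind between them, and for the GAS letters TTCNNNGAA, and no match of one overlapped a match of the other in the windows of the 10 genes. The ISRE letters were found in 6 of the 8 genes and in 4.38% of the 27305 genes with a window, and the GAS letters in 2 of the 8, PSMB8 and PSMB5, and in 9.38% of genes. Of the other 20S and 19S subunit genes, 27 had a window and 2 of them, PSMA4 and PSMB4, held the ISRE letters, as did 4 of the 9 class I presentation genes with a window, B2M, TAP1, TAP2 and TAPBP. A match is a description of the sequence and not a measured site. The antioxidant element TGACNNNGC, read by NRF factors, was found in PSMB9, PSME1 and PSME2 and in 16.1% of genes. The stretch from 100 bases before the start to 20 bases from the start on is shown because the ISRE letters of all 6 genes fall within it. Capitals mark ISRE letters in the first 6 sequences and in PSMB8 also GAS letters, and GAS letters in PSMB5, and PSMB9 has neither ISRE nor GAS letters in its whole window.
PSMB10 (chr16:67936831-67936950, minus strand): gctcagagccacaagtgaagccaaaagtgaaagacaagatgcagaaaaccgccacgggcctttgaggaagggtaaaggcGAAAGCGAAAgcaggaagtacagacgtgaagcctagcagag
PSMB8 (chr6:32844028-32844147, minus strand): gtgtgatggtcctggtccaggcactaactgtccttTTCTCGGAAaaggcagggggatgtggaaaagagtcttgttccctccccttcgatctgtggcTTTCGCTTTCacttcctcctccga
PSME1 (chr14:24136094-24136213, plus strand): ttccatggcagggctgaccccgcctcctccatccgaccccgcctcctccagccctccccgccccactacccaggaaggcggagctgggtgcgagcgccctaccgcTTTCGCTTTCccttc
PSME2 (chr14:24146591-24146710, minus strand): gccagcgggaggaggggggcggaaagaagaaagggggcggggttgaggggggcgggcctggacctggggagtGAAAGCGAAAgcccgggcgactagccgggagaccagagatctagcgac
ERAP1 (chr5:96807926-96808045, minus strand): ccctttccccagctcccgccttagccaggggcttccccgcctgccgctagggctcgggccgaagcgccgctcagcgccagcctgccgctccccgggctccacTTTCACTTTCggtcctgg
ERAP2 (chr5:96876400-96876519, plus strand): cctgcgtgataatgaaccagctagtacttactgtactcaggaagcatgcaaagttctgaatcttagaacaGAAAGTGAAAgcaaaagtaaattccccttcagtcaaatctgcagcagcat
PSMB5 (chr14:23034881-23035000, minus strand): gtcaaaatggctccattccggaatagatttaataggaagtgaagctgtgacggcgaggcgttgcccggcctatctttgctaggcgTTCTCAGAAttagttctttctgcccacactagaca
PSMB9 (chr6:32854092-32854211, plus strand): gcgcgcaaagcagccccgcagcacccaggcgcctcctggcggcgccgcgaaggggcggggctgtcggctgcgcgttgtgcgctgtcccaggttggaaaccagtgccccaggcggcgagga
Counted from 0 at the start site, the ISRE letters lie at bases -21 to -12 in PSMB10, -4 to 5 in PSMB8, 5 to 14 in PSME1, -28 to -19 in PSME2, 2 to 11 in ERAP1 and -30 to -21 in ERAP2. The GAS letters lie at bases -65 to -57 in PSMB8 and at -158 to -150, outside the stretch shown, and -15 to -7 in PSMB5. PSMB8, PSMB5, ERAP1 and ERAP2 each have a pair of RefSeq start sites, and the other start site of each held neither motif. PSMB9 and TAP1 are neighbours read in opposite directions, and the start of PSMB9 and the nearer start of TAP1 lie 488 bases apart. In that stretch, 354 to 369 bases before the start of PSMB9 and so outside its window, lie overlapping copies of the ISRE letters, shown here with 10 bases on each side.
TAP1 strand (chr6:32853813-32853848, minus strand): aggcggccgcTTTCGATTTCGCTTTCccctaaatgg

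PSMB10, PSMB9 and PSMB8 take the places of PSMB7, PSMB6 and PSMB5 in the immunoproteasome. PSMB10 (chr16:67934506-67936864, minus strand, GRCh38, GENCODE v44) was at 12.8, 14.3 and 12.8 CPM with vehicle and at 6.99, 6.52 and 6.20 CPM with DOX in CAL27 cells. Each DOX library was below each vehicle library. The fall, 2.03-fold (log2 change -1.02, SE 0.078, adjusted p = 1.54e-09), was the largest of the 10 genes in this line. In HSC3 cells PSMB10 was at 4.66, 3.51 and 2.84 CPM with vehicle and at 1.87, 2.998 and 3.35 CPM with DOX. There the groups overlapped, and the log2 change of -0.43 (SE 0.258) was not called (adjusted p = 0.266, and -0.21, adjusted p = 0.506 without DOX replicate 1). It was the least counted of the 10, with 277 to 538 counts in the HSC3 libraries. In the annotation, 39.4% of its exon bases also lie under a second gene on the same strand, ENSG00000261884, so reads there may be split between both.

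PSMB9 (chr6:32844136-32859851, plus strand) lies beside TAP1 and PSMB8 in the MHC class II region. In CAL27 cells it was at 61.3, 59.5 and 61.0 CPM with vehicle and at 50.6, 45.7 and 43.3 CPM with DOX. The groups were apart, with a log2 change of -0.38 (SE 0.049, adjusted p = 1.99e-06), a 1.31-fold fall. In HSC3 cells PSMB9 was at 12.5, 12.1 and 13.7 CPM with vehicle and at 14.0, 20.9 and 17.2 CPM with DOX. These DOX libraries were all above the vehicle libraries, with DOX replicate 1 just above vehicle replicate 3. The log2 change of 0.44 (SE 0.146) was called at an adjusted p of 0.043. This call was lost when vehicle replicate 1, 2 or 3 or DOX replicate 2 or 3 was left out (log2 change 0.43, 0.40, 0.50, 0.28 and 0.45, adjusted p = 0.138, 0.161, 0.078, 0.159 and 0.0988) and held without DOX replicate 1 (0.58, adjusted p = 2.54e-04).

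PSMB8 (chr6:32840717-32844679, minus strand) was at 36.2, 36.2 and 35.3 CPM with vehicle and at 29.5, 25.8 and 20.1 CPM with DOX in CAL27 cells. The DOX libraries were all lower but spread widely, and the log2 change was -0.52 (SE 0.132, adjusted p = 0.0207). In HSC3 cells PSMB8 was at 17.2, 15.9 and 15.5 CPM with vehicle and at 17.1, 19.5 and 17.7 CPM with DOX. The groups overlapped and the log2 change of 0.16 (SE 0.102) was not called (adjusted p = 0.308, and 0.20, adjusted p = 0.125 without DOX replicate 1). Of its exon bases 17.3% lie under genes of the opposite strand, PSMB8-AS1 and PSMB9, and the use of strand in counting is not given in the sources used here, so reads there cannot be assigned with certainty. For all 3 immune subunits the order of the groups was CAL27 vehicle, CAL27 DOX and then the HSC3 groups, as the plot of levels by library shows.

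**Figure D2:**
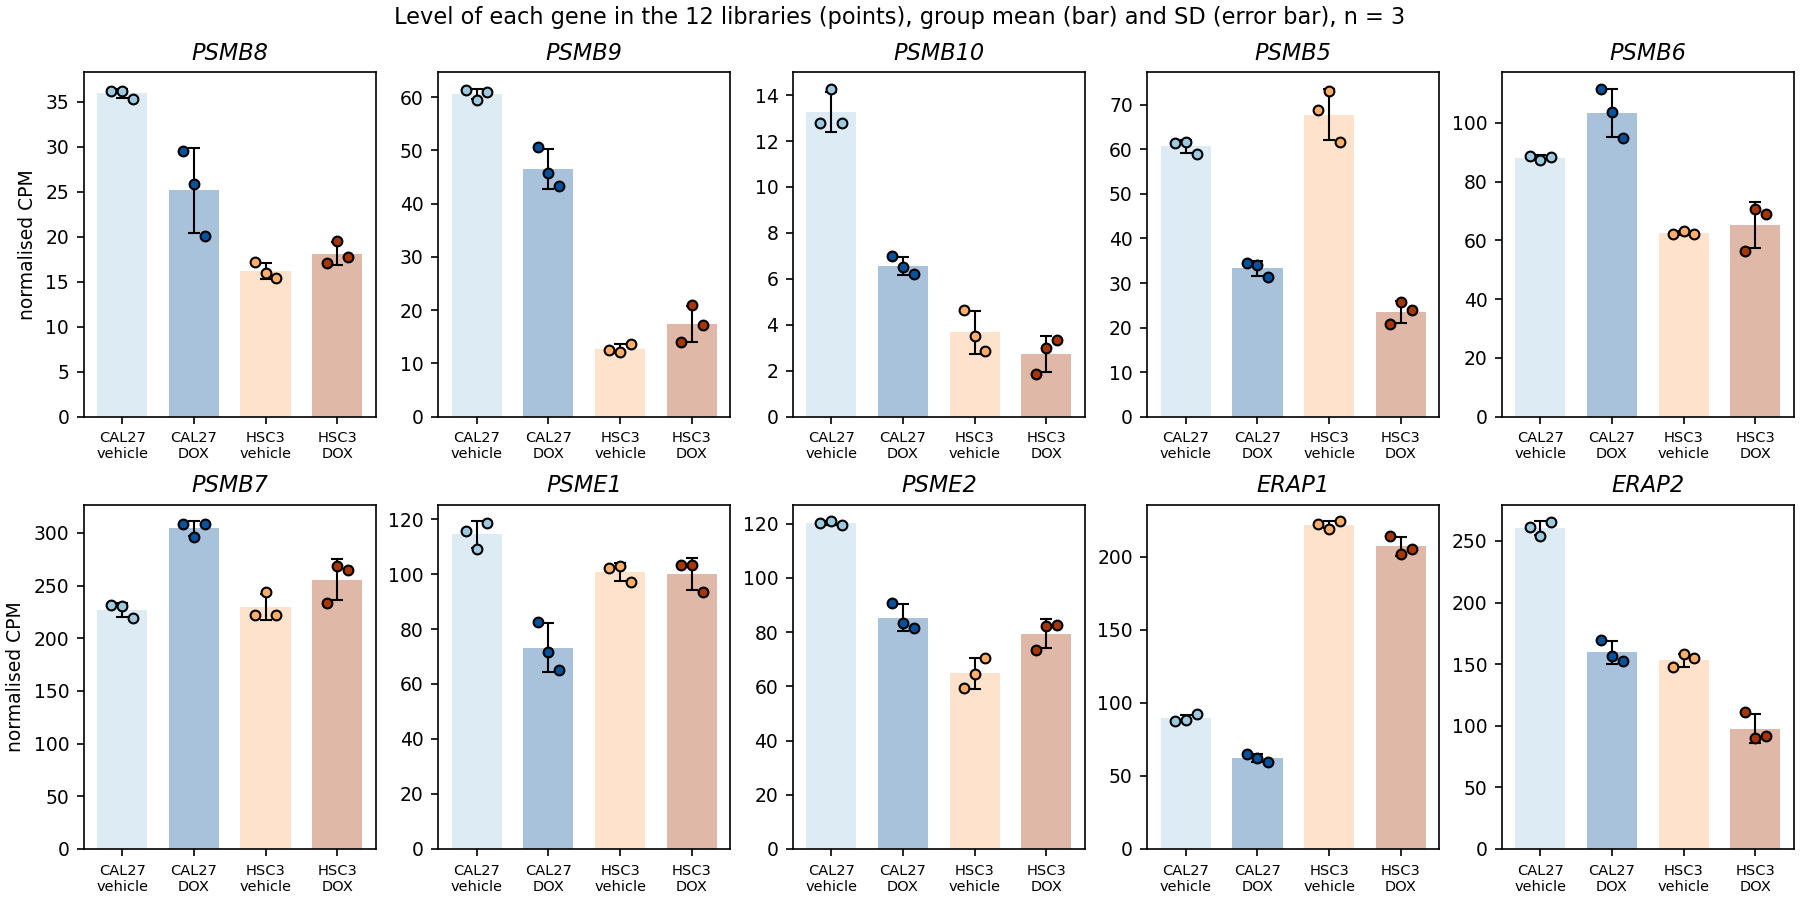
Normalised CPM (y axis, from 0) of each gene in the 4 groups (x axis). Points are the 12 libraries, bars the group means and error bars the SD (n = 3). In CAL27 cells the vehicle and DOX points of all 10 genes are apart, and in HSC3 cells those of PSMB9, PSMB5, PSME2, ERAP1 and ERAP2 are apart.

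PSMB5, the constitutive chymotrypsin-like subunit and the main target of proteasome inhibitor drugs, fell in both lines, and in CAL27 cells against the direction of PSMB6 and PSMB7. This gene (chr14:23016543-23035230, minus strand) has no exon under another annotated gene. In CAL27 cells PSMB5 was at 61.4, 61.7 and 58.9 CPM with vehicle and at 34.4, 34.2 and 31.3 CPM with DOX. In HSC3 cells it was at 68.8, 73.1 and 61.6 CPM with vehicle and at 20.8, 25.7 and 23.96 CPM with DOX. The DOX libraries lay well below the vehicle libraries in both lines. The fall was 1.83-fold in CAL27 (log2 change -0.87, SE 0.047, adjusted p = 8.64e-12) and 2.90-fold in HSC3 cells (log2 change -1.53, SE 0.102, adjusted p = 1.64e-06). Without DOX replicate 1 the HSC3 value was -1.45 (adjusted p = 1.62e-11).

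PSMB6 (chr17:4796144-4798502, plus strand), which carries the caspase-like activity, and PSMB7 (chr9:124353465-124415444, minus strand), which carries the trypsin-like activity, rose in CAL27 cells. PSMB6 was at 88.8, 87.4 and 88.5 CPM with vehicle and at 111.4, 103.8 and 94.9 CPM with DOX (log2 change 0.23, SE 0.047, adjusted p = 5.43e-04). PSMB7 was at 231.2, 230.5 and 219.3 CPM with vehicle and at 308.7, 296.1 and 308.1 CPM with DOX (log2 change 0.42, SE 0.038, adjusted p = 1.71e-08). All DOX libraries were above all vehicle libraries for both genes. In HSC3 cells PSMB6 was at 62.5 ± 0.65 CPM with vehicle and at 65.3 ± 7.8 CPM with DOX, and PSMB7 at 229.5 ± 12 and 255.6 ± 19 CPM (SD, n = 3). Their groups overlapped there and neither change was called (log2 change 0.060, adjusted p = 0.70 for PSMB6 and 0.15, adjusted p = 0.155 for PSMB7). Both were called higher without DOX replicate 1, the library with the lowest value of PSMB6 (log2 change 0.16, adjusted p = 0.0359 for PSMB6 and 0.22, adjusted p = 0.00179 for PSMB7).

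The remaining subunits of the proteasome were set beside these from a list of the other 11 20S and the 19 19S subunit genes. In CAL27 cells 26 of the 30 rose and 0 fell, where 22.6% of all genes were called higher, with a median log2 change of 0.29. Within the 19S list the largest rises were those of the ATPase PSMC4 (0.55, adjusted p = 3.21e-10), PSMD12 (0.53, adjusted p = 1.56e-09) and the ubiquitin receptor ADRM1 (0.50, adjusted p = 6.66e-09). Within the 20S list they were smaller, led by PSMA3 (0.31, adjusted p = 9.2e-07) and PSMB2 (0.30, adjusted p = 3.71e-06). The 4 not called were PSMA6 (-0.038), SEM1 (0.15), PSMA2 (0.22) and PSMC1 (0.46). Of the exon bases of PSMC1, 76.15% lie under NRDE2 on the opposite strand. In HSC3 cells 4 of the 30 rose and 0 fell, a share near the 13.0% of all genes called higher, with a median of 0.12, and these were the ATPases PSMC2 (0.52), PSMC6 (0.27) and PSMC4 (0.25) and the 20S subunit PSMA5 (0.19). The calls of PSMC4 and PSMA5 were lost when any HSC3 library but DOX replicate 1 was left out. Without DOX replicate 1 the count was 10, while the genes called higher over the whole table went from 2342 to 3268. The count was 8 with 1 fit of all 12 libraries, and 2 with library totals in place of TMM or with a replicate block. In both lines PSMB5 lay below each of the 30, the lowest of which were at -0.038 and -0.067.

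NFE2L1, the membrane-bound transcription factor that drives proteasome subunit genes when the proteasome falls short, fell in both lines. It was at 230.5, 231.0 and 229.3 CPM with vehicle and at 177.2, 165.0 and 166.3 CPM with DOX in CAL27 cells (log2 change -0.44, SE 0.038, adjusted p = 7.13e-09). In HSC3 cells it was at 238.9, 218.2 and 227.0 CPM with vehicle and at 129.2, 154.2 and 147.6 CPM with DOX (log2 change -0.67, SE 0.078, adjusted p = 9.53e-05). The groups did not overlap in either line. DDI2, the protease that activates NFE2L1, was not called (log2 change 0.094, adjusted p = 0.0651 in CAL27 and 0.065, adjusted p = 0.512 in HSC3 cells). Of the 9 assembly factors, 5 rose in CAL27 cells, where 22.6% of all genes did, led by the chaperone PSMG1 (0.51, adjusted p = 1.5e-08), and 0 fell, and none was called in HSC3 cells. POMP, a maturation factor of the 20S core, was not called in either line (log2 change 0.13, adjusted p = 0.0886 and 0.16, adjusted p = 0.087). The thymus- and testis-restricted subunits PSMB11 and PSMA8 had at most 6 and 4 counts in any library and were not tested.

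**Figure D3:**
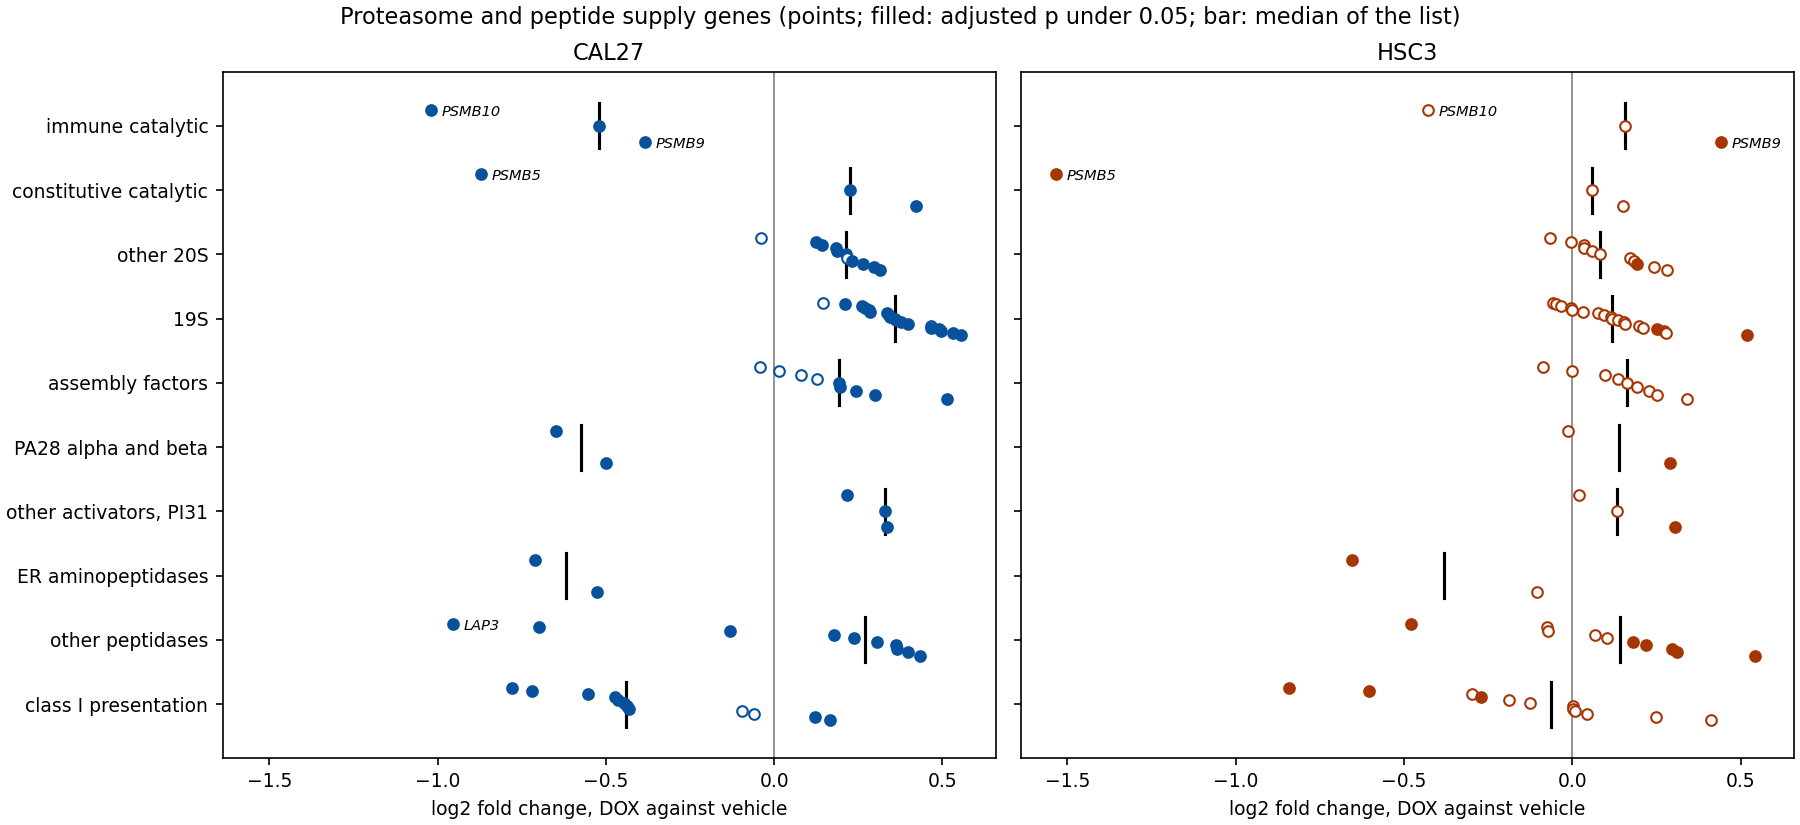
Log2 fold change, DOX against vehicle (x axis), of the genes of each list (y axis) in CAL27 (left) and HSC3 cells (right). Each point is a gene, filled at an adjusted p under 0.05, and the bar is the median of the list. In CAL27 cells the other 20S and 19S subunits lie between -0.04 and 0.55, while the immune subunits, PSMB5, PA28 alpha and beta and the ER aminopeptidases lie below -0.38.

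PSME1 and PSME2, the alpha and beta subunits of PA28, are neighbours on chromosome 14. PSME1 (chr14:24136163-24138967, plus strand) was at 115.7, 109.1 and 118.6 CPM with vehicle and at 82.7, 71.7 and 65.2 CPM with DOX in CAL27 cells. The DOX libraries were all lower (log2 change -0.65, SE 0.072, adjusted p = 3.26e-05). PSME2 (chr14:24143362-24147570, minus strand) was at 120.2, 121.0 and 119.7 CPM with vehicle and at 90.9, 83.5 and 81.5 CPM with DOX in the same libraries. Its groups were apart too (log2 change -0.50, SE 0.042, adjusted p = 6.1e-09).

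In HSC3 cells PSME1 was at 102.3, 102.7 and 97.0 CPM with vehicle and at 103.3, 103.2 and 93.4 CPM with DOX. These groups overlapped, with a log2 change of -0.014 (SE 0.067, adjusted p = 0.909, and -0.033, adjusted p = 0.731 without DOX replicate 1). PSME2 was at 59.2, 64.5 and 70.6 CPM with vehicle and at 73.4, 82.3 and 82.7 CPM with DOX, with all DOX libraries higher. The log2 change of 0.29 (SE 0.085) was called at an adjusted p of 0.0255. The call held without vehicle replicate 3 or DOX replicate 1 (log2 change 0.35, adjusted p = 3.26e-04 for the latter) and was lost without vehicle replicate 1 or 2 or DOX replicate 2 or 3 (log2 change 0.23, 0.28, 0.26 and 0.26, adjusted p = 0.131, 0.101, 0.0739 and 0.102). Of the exon bases of PSME2, 6.03% lie under genes of the opposite strand. The other activators went another way in CAL27 cells, where PSME3, the nuclear PA28 gamma (0.33, adjusted p = 2.42e-07), PSME4, or PA200 (0.33, adjusted p = 2.92e-07), and PSMF1, an inhibitor of the core (0.22, adjusted p = 6.77e-05), all rose. Of these, PSMF1 also rose in HSC3 cells (0.30, adjusted p = 0.00481), where PSME3 was at 0.019 (adjusted p = 0.877) and PSME4 at 0.13 (adjusted p = 0.116).

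ERAP1 and ERAP2 trim the amino ends of peptides to the length that class I molecules hold. ERAP2 (chr5:96875986-96919703, plus strand) was at 261.6, 254.2 and 265.6 CPM with vehicle and at 169.6, 156.4 and 152.5 CPM with DOX in the CAL27 line. In HSC3 cells it was at 147.4, 157.9 and 154.6 CPM with vehicle and at 111.1, 90.2 and 91.9 CPM with DOX. It fell by a like factor in both, with all DOX libraries below all vehicle libraries, 1.64-fold in CAL27 (log2 change -0.71, SE 0.041, adjusted p = 2.47e-11) and 1.57-fold in HSC3 cells (log2 change -0.65, SE 0.081, adjusted p = 1.41e-04). Without DOX replicate 1 the HSC3 value was -0.75.

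ERAP1 (chr5:96760810-96808100, minus strand) was at 87.4, 88.6 and 92.2 CPM with vehicle and at 65.0, 62.5 and 59.2 CPM with DOX in CAL27 cells (log2 change -0.53, SE 0.043, adjusted p = 4.18e-09). Its groups were apart. In HSC3 cells ERAP1 was at 222.8, 219.5 and 224.3 CPM with vehicle and at 214.3, 201.9 and 205.4 CPM with DOX. The DOX libraries were all slightly lower there, with a log2 change of -0.11 (SE 0.055) that was not called (adjusted p = 0.197). It was called without DOX replicate 1 (-0.13, adjusted p = 0.0455). Of the exon bases of ERAP1, 10.2% lie under genes of the opposite strand, CAST among them.

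Taken over the 10 genes, the vehicle and DOX libraries did not overlap for 8 lower and 2 higher genes in CAL27 cells, where 25.9% of genes tested were apart in each direction. In HSC3 cells they did not overlap for 3 lower and 2 higher genes, where 22.5% and 20.2% of genes tested were apart. Of 10 other peptidases of the cytosol and endosomes, 3 fell and 7 rose in CAL27 cells, where 21.8% and 22.6% of all genes did. LAP3, a cytosolic leucine aminopeptidase induced by interferon, fell most (log2 change -0.95, SE 0.052, adjusted p = 1.29e-11), from 62.9, 60.1 and 64.3 CPM to 35.04, 32.1 and 29.7 CPM. In HSC3 cells LAP3 was at 0.067 (adjusted p = 0.592). BLMH, or bleomycin hydrolase, fell in both lines (-0.70, adjusted p = 1.58e-05 and -0.48, adjusted p = 0.00104). NRDC (0.43 and 0.31), PREP (0.40 and 0.30) and NPEPPS, the puromycin-sensitive aminopeptidase (0.30 and 0.54), were called higher in both. In HSC3 cells 1 of the 10 fell and 5 rose, where 15.4% and 13.0% of all genes did.

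Further along the pathway, 8 of 12 class I presentation genes fell and 2 rose in CAL27 cells, against 21.8% and 22.6% of all genes. In HSC3 cells 3 fell and 0 rose, against 15.4% and 13.0% of all genes. TAP1, the transporter subunit that shares its upstream stretch with PSMB9, was at 58.3, 57.2 and 59.0 CPM with vehicle and at 43.4, 39.1 and 36.7 CPM with DOX in CAL27 cells (log2 change -0.55, SE 0.051, adjusted p = 2.62e-08). In HSC3 cells it was at 40.7, 37.9 and 34.5 CPM with vehicle and at 42.1, 51.1 and 41.5 CPM with DOX. There the DOX libraries were all higher and the log2 change of 0.25 (SE 0.103) was not called (adjusted p = 0.103), but was without DOX replicate 1 (0.30, adjusted p = 0.0117). Of the exon bases of TAP1, 14.2% lie under PSMB8-AS1 on the opposite strand. TAP2 was not called in either line (-0.061, adjusted p = 0.748 and 0.41, adjusted p = 0.322) at 0.81 to 3.18 CPM. B2M, the light chain of class I, fell in both (-0.45, adjusted p = 2.2e-06 and -0.27, adjusted p = 0.00436), as did the class I heavy chain HLA-B (-0.72, adjusted p = 6.68e-09 and -0.84, adjusted p = 2.03e-04). NLRC5, the transactivator of class I genes, fell in CAL27 cells (-0.43, adjusted p = 2.68e-07) and was at 0.0090 in HSC3 cells (adjusted p = 0.976).

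Of 14 interferon receptors, signal transducers and regulators, 8 fell and 1 rose in CAL27 cells (21.8% and 22.6% of all genes). Of 13 tested in HSC3 cells 5 fell and 2 rose (15.4% and 13.0% of all genes), the latter near the share over all genes. IRF1, a factor known for its role at the PSMB9 and TAP1 promoter, fell in CAL27 cells from 56.8, 57.8 and 60.2 to 40.0, 35.6 and 31.0 CPM (log2 change -0.72, SE 0.072, adjusted p = 3.56e-06). In HSC3 cells IRF1 was at 22.4, 19.6 and 18.7 CPM with vehicle and at 18.3, 27.6 and 26.3 CPM with DOX. The low DOX value was that of replicate 1, and the log2 change of 0.24 (SE 0.150, adjusted p = 0.278) became 0.41 (adjusted p = 0.00136) without it. Of the exon bases of IRF1, 22.9% lie under genes of the opposite strand. IFNGR1, the ligand-binding chain of the interferon-gamma receptor, fell in both lines (-1.20, adjusted p = 8.78e-14 and -1.44, adjusted p = 4.53e-06), and SOCS3, a feedback inhibitor of JAK kinases, rose in both (0.35, adjusted p = 2.5e-04 and 1.21, adjusted p = 2.43e-06). SOCS1 went the other way in CAL27 cells (-1.52, adjusted p = 3.14e-06), from a mean of 1.67 CPM with vehicle to 0.588 CPM with DOX. Its groups overlapped in HSC3 cells. JAK2 fell in HSC3 cells (-0.51, adjusted p = 0.00544), and its groups overlapped in CAL27 cells. IRF2 fell in CAL27 (-0.33, adjusted p = 2.25e-05) and rose in HSC3 cells (0.38, adjusted p = 0.00162). IRF9 was called lower in CAL27 cells (adjusted p = 0.00115) on counts of only 22, 23 and 30 with vehicle and 1, 6 and 0 with DOX. Of the squamous markers, 6 of 9 were called lower and 1 higher in each line. Over all genes these shares were 21.8% and 22.6% in CAL27 and 15.4% and 13.0% in HSC3 cells. KRT14 fell most (-2.90 and -1.88), and EPCAM was the marker called higher (0.40 and 0.87). Of the low-level markers of other cell types, LUM (-1.97), PDGFRB (-1.02), COL1A2 (-0.54), VWF (-0.99) and CDH5 (-0.55) were called lower in CAL27 cells. In HSC3 cells CORO1A (-1.53) was called lower and COL1A1 (0.73) higher. The part of all these markers in the results was not tested.

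Whether the lines differed in their response was tested with an interaction term over the 12 libraries jointly, given as the HSC3 change minus the CAL27 change on the log2 scale. The lines also differ in medium and in their separately deposited counts, which this term cannot tell apart from the line itself. Of the 10 genes, 5 had a higher and 2 a lower value in HSC3 than in CAL27 cells, where 8.25% and 12.3% of 20694 genes were called in those directions. None of the 10 differed by more than 2-fold, where 2.19% of genes were so called higher and 3.02% lower. Relative to CAL27 cells, HSC3 cells held up PSMB9 (0.83, SE 0.157, adjusted p = 0.00141), PSMB8 (0.68, SE 0.154, adjusted p = 0.00521), PSME2 (0.79, SE 0.097, adjusted p = 3.65e-05), PSME1 (0.63, SE 0.106, adjusted p = 5.15e-04) and ERAP1 (0.42, SE 0.069, adjusted p = 4.19e-04). The opposite held for PSMB5, which fell further in HSC3 cells (-0.66, SE 0.115, adjusted p = 6.65e-04), and for PSMB7, whose change was lower in HSC3 than in CAL27 cells (-0.27, SE 0.083, adjusted p = 0.0318). No difference was called for PSMB10 (0.59, SE 0.274, adjusted p = 0.157), PSMB6 (-0.17, SE 0.109, adjusted p = 0.34) or ERAP2 (0.058, SE 0.100, adjusted p = 0.773).

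The difference for PSMB10 was called without HSC3 vehicle replicate 1 (0.82, adjusted p = 0.047) or HSC3 DOX replicate 1 (0.82, adjusted p = 0.00484). For PSMB7 the call was lost without any of the 6 CAL27 libraries or HSC3 vehicle replicate 2 (adjusted p from 0.0587 to 0.11). Differences of the same direction were called for TAP1 (0.80, adjusted p = 2.7e-04), IRF1 (0.96, adjusted p = 0.00141), LAP3 (1.02, adjusted p = 2.72e-06) and NLRC5 (0.44, adjusted p = 0.0492), the last lost without any of 10 of the 12 libraries, and not for B2M (0.17, adjusted p = 0.183) or TAP2 (0.48, adjusted p = 0.253). The B2M difference was called without CAL27 DOX library 4 or HSC3 DOX replicate 1. Its value reached 0.27 and its adjusted p 0.0185 among the alternatives. Of the 30 other 20S and 19S subunits, 10 had a lower change in HSC3 than in CAL27 cells and 0 a higher one, where 12.3% and 8.25% of all genes did. MUC1 itself differed (1.36, SE 0.247, adjusted p = 0.00101), from vehicle levels that were 31.7-fold apart.

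With vehicle, HSC3 cells had lower levels of the immune catalytic subunits than CAL27 cells. Here too the line, its medium and its separately deposited counts cannot be told apart. Of the 10 genes, 7 were called lower and 1 higher in HSC3 with vehicle than in CAL27 with vehicle, where 32.3% and 30.6% of 20694 genes were. With a fold above 2 these were 3 lower and 1 higher, where 18.7% and 13.2% of genes were. The 3 immune subunits were 4.74-fold (PSMB9, log2 difference -2.25, SE 0.116, adjusted p = 1.13e-10), 3.61-fold (PSMB10, -1.85, SE 0.197, adjusted p = 5.93e-07) and 2.22-fold lower (PSMB8, -1.15, SE 0.11, adjusted p = 1.76e-07). PSME2 was 1.86-fold (adjusted p = 1.5e-08), ERAP2 1.70-fold (adjusted p = 1.32e-07) and PSMB6 1.41-fold lower (adjusted p = 3.88e-05). PSME1 was 1.14-fold lower (adjusted p = 0.0425), a call lost without any of 5 of the 6 vehicle libraries (adjusted p from 0.0566 to 0.108). ERAP1 alone was higher in HSC3 cells, 2.49-fold (log2 difference 1.31, SE 0.049, adjusted p = 2.67e-12), so that the levels of the aminopeptidases were ordered in opposite ways in the lines. PSMB5 (0.16, SE 0.080, adjusted p = 0.0968) and PSMB7 (0.015, SE 0.058, adjusted p = 0.836) were not called. PSMB5 was called higher without HSC3 vehicle replicate 3 (0.21, adjusted p = 0.0383) or HSC3 DOX replicate 1 (0.15, adjusted p = 0.0316). Of the 12 class I presentation genes 9 were lower in HSC3 cells, NLRC5 (-1.84) among them, and 3 higher, where 32.3% and 30.6% of all genes were. Of the 14 interferon regulators 5 were lower, IRF1 (-1.53) among them, and 4 higher, JAK2 (1.70), JAK1 (0.82) and IRF2 (0.33) among them, both near those shares over all genes. Library totals in place of TMM moved the median over all genes from -0.12 to -0.39 in this comparison and the share of higher among called genes from 48.7% to 35.7%. With them PSMB5 was at -0.11 (adjusted p = 0.28) and PSMB7 at -0.25 (adjusted p = 0.00206).

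The balance between each immune subunit and the constitutive subunit whose place it takes was expressed per library as the log2 ratio of counts per kilobase of merged exons. This ratio does not depend on the library total, and it was not tested. For PSMB9 to PSMB6 it was -1.75 ± 0.011 with vehicle in CAL27 and -3.50 ± 0.10 in HSC3 cells, and DOX changed it by -0.61 and by 0.37 (mean differences, SD within groups 0.022 and 0.13, n = 3). For PSMB10 to PSMB7 it was -3.96 ± 0.083 and -5.86 ± 0.37 with vehicle, and the DOX differences were -1.44 and -0.59 (SD 0.086 and 0.36). The latter, in HSC3 cells, ranged from -0.74 to -0.38 over the 6 alternatives run for it. For PSMB8 to PSMB5 it was -1.92 ± 0.016 and -3.23 ± 0.12 with vehicle, and here the DOX differences were above 0 in both lines, at 0.34 and 1.69 (SD 0.15 and 0.10). The HSC3 value corresponds to a 3.23-fold higher ratio, with PSMB8 not called changed and PSMB5 lower. For the PSMB9 pair the DOX libraries lay below the vehicle libraries in CAL27 and above them in HSC3 cells, and for the PSMB8 pair above them in both lines. For the PSMB10 pair the DOX libraries were below in both lines, in HSC3 cells with -6.17 as the highest DOX and -6.15 as the lowest vehicle value. The level of a ratio depends on the length assigned to each gene, whereas the DOX difference does not.

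**Figure D4:**
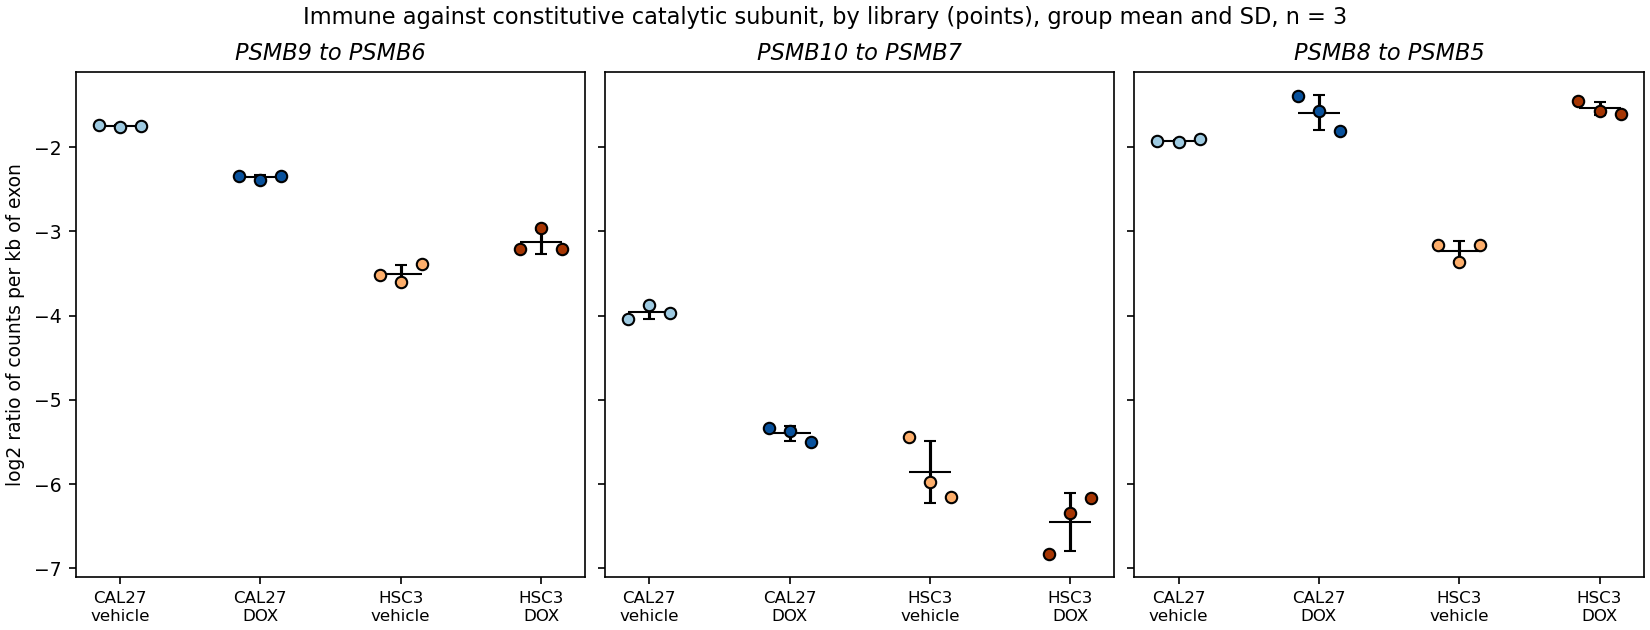
Log2 ratio of counts per kilobase of merged exons (y axis) for each immune subunit and its constitutive counterpart (panels) in the 4 groups (x axis). Points are libraries, and the horizontal mark and error bar are the group mean and SD (n = 3). The PSMB8 to PSMB5 ratio is higher with DOX in both lines, and the PSMB9 to PSMB6 ratio is lower with DOX in CAL27 and higher in HSC3 cells.

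The genes most like each immune subunit were taken by Pearson's r of log2 CPM, centred within each line, over the 12 libraries, among the 8569 or 8570 other genes whose average log2 CPM reached 3 in each line. This is a description, since all points share the libraries and their depth and the DOX groups set much of the variation. For PSMB9 they were ZDHHC24 (0.96), PTPN6 (0.96), BAG1 (0.96), REPIN1 (0.96) and LINC00963 (0.94). For PSMB8 they were AIG1 (0.95), NUB1 (0.95), RPL19 (0.94), ZNF385A (0.94) and CMTR1 (0.94). For PSMB10 they were LAMB2 (0.99), RPL29 (0.98), NADSYN1 (0.97), AGRN (0.97) and GRN (0.96).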

How the data were processed

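RNA from triplicate cultures of both tet-MUC1shRNA lines was sequenced from TruSeq Stranded mRNA libraries. The submitters' processing notes name FastQC 0.11.9, STAR 2.7.9a, Subread 2.0.1 with featureCounts and the build GRCh38. The use of strand and the handling of duplicates and multiply mapped reads are not given in the sources used here. The authors deposited 1 table of raw counts per line, with 39368 symbols each and no normalization. Of counts between 1 and 19, 22.1% to 35.7% were odd in a library, so a count may not stand for 1 fragment. The CAL27 DOX columns are numbered 4 to 6 and were assigned to their group without a replicate number.

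Counts were analysed in R 4.3.3 with edgeR 4.0.16 (TMM, filterByExpr set to min.count 10 and min.total.count 15, robust glmQLFit, glmQLFTest) within each line, and in 1 fit of all 12 libraries for the interaction and the vehicle groups. Adjusted p-values are Benjamini-Hochberg over all genes tested, the threshold was 0.05, and the SE is the log2 fold change divided by the square root of F. The scripts were tested on simulated data. Coordinates, exon overlap and lengths are from GENCODE v44 on GRCh38 and may differ from the features counted, and start-site sequences are from RefSeq on GRCh38.p14. Chi-square values per degree of freedom between replicates were 7.27 to 132, and no 2 libraries held the same values. In HSC3 cells, same-numbered vehicle and DOX replicates had deviations correlated at -0.19, 0.34 and -0.33, so the numbers were not taken to pair the samples.

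The 10 genes, the other lists and the tests were chosen with earlier results of these data known. Besides the 10 genes, the text names MUC1, TAP1, TAP2, B2M, NLRC5 and IRF1, up to 3 called members per list and direction with the largest change, and the 5 genes most like each immune subunit. DDI2, POMP, PSMB11, PSMA8, PSMA2, PSMA4, PSMA6, PSMB4, PSMC1, SEM1, JAK1, JAK2, TAPBP, IRF2, NRDC, PREP, NPEPPS, LAP3 and other members are named outside this rule in places, where a count or role called for it, and 1 gene of the rule is not reported here. Alternatives were RLE size factors, library totals, no filter, DESeq2 1.42.0, 1 fit of all 12 libraries, a fold above 2, a replicate block, each library left out in turn, and other lengths for the ratio, of which the MANE Select length was chosen after seeing the data.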

Additional observations from a re-analysis of the deposited data

Results flagged for a closer look

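The change with DOX differed between the lines, by the test of the interaction of line and DOX (edgeR's quasi-likelihood test, adjusted p under 0.05), for 11 of the genes followed throughout. Values are the HSC3 change minus the CAL27 change on the log2 scale. Those above 0 were MUC1 (1.36), IRF1 (0.96), PSMB9 (0.83), TAP1 (0.80), PSME2 (0.79), PSMB8 (0.68), PSME1 (0.63), NLRC5 (0.44) and ERAP1 (0.42). Those below 0 were PSMB5 (-0.66) and PSMB7 (-0.27). For PSMB9, PSME2 and TAP1 all DOX libraries were below all vehicle libraries in CAL27 cells and above them in HSC3 cells. In HSC3 cells the calls of PSMB9 and PSME2 were lost with several of the libraries left out, and TAP1 was not called. For PSMB5 both lines moved down, by different amounts.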

How the results depend on the processing

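In CAL27 cells the 10 genes kept their direction and call under each alternative of the fit and with any library left out. Of 1424 values of named genes under the alternatives, 1338 kept direction and call, 57 lost and 13 gained a call and 16 changed sign. Requiring a fold above 2 left 1 lower and 0 higher of the 10 genes in each line, and 984 lower and 252 higher, and 793 lower and 284 higher, of all genes in CAL27 and HSC3 cells. In 1 fit of all 12 libraries 2337 genes were lower and 2746 higher in CAL27 after DOX. In HSC3 cells 1 of the 10 genes was higher with library totals or with the replicate block, where PSMB9 was at 0.42 (adjusted p = 0.0669 and 0.0667), and the block, of numbers that do not pair the samples, also ended the calls of PSMA5 and PSMC4. No paired analysis was possible because the CAL27 DOX columns carry no shared numbers, in CAL27 cells and in the interaction. With no filter 1 of the 10 genes had a lower interaction, PSMB7 being at -0.25 (adjusted p = 0.0525).

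With each library left out, 2 to 3 of the 10 genes were lower and 0 to 4 higher in HSC3 cells, and of all genes 2049 to 3601 were lower and 1514 to 3268 higher. The interaction was lower for 1 to 2 and higher for 5 to 6 of the 10 genes, and of all genes lower for 1947 to 3233 and higher for 1336 to 2614. Between vehicle groups 6 to 7 of the 10 were lower and 1 to 2 higher in HSC3 cells, and of all genes 6203 to 7563 and 5873 to 6724. Sign changes were those of NLRC5 with DOX in HSC3 cells (-0.016 with library totals, -0.11 to 0.15 over left-out libraries), PSMB6 (-0.0030 to 0.16) and PSME1 (-0.041 to 0.029) there, TAP2 in CAL27 cells (-0.17 to 0.049), ERAP2 in the interaction (-0.024 to 0.12), and between vehicle groups PSMB5 (-0.11 with library totals) and PSMB7 (-0.030 with RLE size factors and with DESeq2, -0.25 with library totals, where it was called at an adjusted p of 0.00206, -0.010 with no filter, -0.032 to 0.027 over left-out libraries). The cause was not tested.

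The vehicle ratios per kilobase with longest-transcript and MANE Select lengths were -2.16 and -0.85 (PSMB9 to PSMB6) and -1.84 and -0.86 (PSMB8 to PSMB5) in CAL27 cells, -3.91 and -2.60 for PSMB9 to PSMB6 in HSC3 cells, -4.09 with either for PSMB10 to PSMB7 in CAL27 cells, and -2.17 with MANE Select for PSMB8 to PSMB5 in HSC3 cells, by construction of the lengths. In HSC3 libraries the values of MUC1 and TAP2 rested on 16 to 196 and 82 to 217 counts.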
